A study of Mus musculus with 2 samples.

Results

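The miRNAs described here are those of the rodent repeat families miR-297, miR-466, miR-467 and miR-669. They were taken by name from the annotation of an Agilent mouse miRNA array, with both arms and all probes, and numbered 61 of the 1881 mouse miRNAs on it. The miR-297 family gave 3 members, miR-466 gave 23, miR-467 gave 12 and miR-669 gave 23. By name, 25 were 5p arms, 26 were 3p arms and 10 gave no arm. The array carried 162 probes for them, of 13 to 23 bases, out of 4415 probes for all miRNAs.

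The study compared femurs of female C57BL/6 mice aged 9 months whose ovaries had been removed by surgery (OVX) with femurs after a sham operation. Each group was 1 RNA sample pooled from 4 mice and measured on 1 array, from fresh bone that still held its marrow. The labels give no genotype beyond the strain and the wild-type mark, and no time since surgery. With 1 array per group no test was made, and "higher" and "lower" describe these 2 arrays. The error given is the standard error between spots of a probe (spot SE), which is technical and holds no variation between mice.

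A miRNA is a short RNA that pairs with mRNAs mainly through its seed, bases 2 to 8 from its 5′ end, and lowers their stability and translation. Most hairpins of these families lie in a tandem cluster inside an intron of Sfmbt2, a mouse Polycomb gene expressed from the paternal allele in early embryo and placenta, where the cluster is best known. The cluster expanded in rodents, and its mature miRNAs are rich in alternating A and C or alternating U and G. In other tissues miR-466l is known for stabilising interleukin 10 mRNA in macrophages, and miR-669a for lowering MyoD in heart progenitors.

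The mature sequences show how alike the members are. RefSeq (GRCm38.p6) held one for 7 of the 61 members, shown here with the seed in capitals. The first 4 alternate A and C after or within the seed and the last 3 alternate U and G.
miR-466i-3p: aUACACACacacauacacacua
miR-466q: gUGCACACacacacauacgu
miR-467f: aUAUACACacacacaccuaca
miR-467g: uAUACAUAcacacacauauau
miR-466j: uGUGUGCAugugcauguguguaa
miR-466k: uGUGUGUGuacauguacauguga
miR-669n: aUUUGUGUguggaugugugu

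No seed was shared among these 7, nor with any other mouse miRNA in that table. All 7 lie outside the Sfmbt2 cluster, so seeds shared among the cluster's members could not be seen. In GRCm38.p6, miR-466i-3p lies at chr13:17747552-17747573 on the plus strand within Cdk13, and miR-466q at chr3:28419988-28420007 on the plus strand within Tnik. On the minus strand, miR-467f lies at chr11:69635419-69635439 within Fxr2 and miR-467g at chr5:34732872-34732892 within Grk4. The sequence of miR-669n was at chr3:115979905-115979924 on the plus strand within Slc30a7. No host gene was listed for miR-466j at chr10:60960802-60960824 or miR-466k at chr3:85467396-85467418, both on the plus strand. The table does not say whether these positions are intronic.

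A probe on the array is the reverse complement of the 3′ part of its miRNA, so it carries the repeat in turn as G and T or as C and A. Capitals mark the longest run of alternating bases, because presence on the arrays is described by that run below. The first 8 probes, each the longest of its miRNA, belong to miRNAs present on both arrays.
miR-466i-5p: CACACACACACACACA
miR-466h-3p: GTGTGTGTGTGcgt
miR-466f-3p: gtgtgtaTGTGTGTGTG
miR-669c-3p: tttactTGTGTGTGTGTG
miR-669p-3p: atacGTGTGTGTGTGTatg
miR-466g: TGTGTGTGcatgtgtc
miR-669l-5p: acatatacatgCACACAC
miR-466o-3p: gtcttaTGTGTGcatgtat

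The next 4 belong to miRNAs present on the OVX array only, and the last 3 to miRNAs present on neither array.
miR-467a-3p: tgtagGTGTGTGTatgtata
miR-467d-3p: gtgtagGTGTGTGTatg
miR-466m-5p: atACACACAtgcacatgc
miR-669o-5p: acataaacatgCACACAC
miR-467a-5p: cgcatatACAtgcaggca
miR-297c-5p: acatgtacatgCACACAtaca
miR-466n-3p: tctaTGTatgctctcatgtat

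Probes of the members resemble one another closely. The longest stretch that a member's probes share with those of another miRNA had a median of 14 bases, against 9 for the other miRNAs. At least 12 bases were shared for 47 of 61 members (77.0%) and for 8.13% of the others, and for 55 members the nearest miRNA was another member. The probes of miR-467c-3p and miR-467e-3p share 20 bases, and those of miR-466f-3p and miR-466i-3p share 17. For 11 members the files list the same probes under 16 further names, such as miR-467h and miR-669d-5p for the probe of miR-669l-5p, or miR-669c-5p for those of miR-669n. Where stretches are shared, a signal cannot be assigned to 1 miRNA with certainty.

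Each array held 1830 spots for the members, of which 56 (sham) and 65 (OVX) carried an outlier flag and were left out. The scanner software marks each spot that stands well above background. A probe passed where over 50% of its remaining spots had that mark, and a miRNA was called present where 1 probe or more passed. The lowest signal of a probe that passed was 17.8 in sham and 19.3 in OVX, and negative control spots averaged 1.93 ± 2.81 (SD, 982 spots) and 1.36 ± 2.86 (SD, 978 spots). At the 75th percentile used for scaling, the OVX array was 2.02-fold brighter, or 1.01 in log2 units. As a check of the tissue label, 8 of 16 marker miRNAs were present on both arrays. Their scaled differences were 0.28 and 0.85 for the red-cell miR-451a and miR-144-3p, -0.63 and 0.63 for miR-223-3p and miR-142a-3p of myeloid and blood cells, and 1.43 for the lymphocyte miR-150-5p. They were 0.77 for the endothelial miR-126a-3p and -0.49 and 0.17 for the cartilage miR-140-3p and miR-140-5p. Their part in the members' differences was not tested. The mesenchymal miR-199a-3p was present on the OVX array only and miR-214-3p on neither, the muscle miRNAs miR-133a-3p and miR-133b-3p on the sham array only and miR-1a-3p and miR-206-3p on neither, and the liver miR-122-5p and neuronal miR-124-3p on neither.

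The repeat families were present more often on the OVX array than on the sham array, and on both more often than mouse miRNAs at large. On the sham array 15 of 61 members (24.6%) were present, beside 10.7% of all 1881 miRNAs. On the OVX array 31 of 61 (50.8%) were present, beside 15.9%. All 15 sham members were among these 31, so 16 members (26.2%) were present on the OVX array only, beside 5.42% of all miRNAs, and none on the sham array only. The remaining 30 were present on neither. Before scaling, 88.3% of the member probes had the higher signal on the OVX array, beside 63.9% of all probes. The OVX array's greater brightness moves with these counts, and its part in them was not tested. In a bulk sample, fewer cells of a type and less RNA per cell cannot be told apart.

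The families did not share 1 pattern. Members were counted by the name printed for their probes. By that name no miR-297 member was present on either array (0 of 3). The probes of miR-669b-5p, present on the OVX array only, are also listed under miR-297a-5p. Of the miR-466 family, 7 of 23 were present on both arrays and a further 6 on the OVX array only. Of the miR-467 family, 1 of 12, miR-467f, was present on both and 6 more on the OVX array only. Of the miR-669 family, 7 of 23 were present on both and 4 more on the OVX array only.

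**Figure D1:**
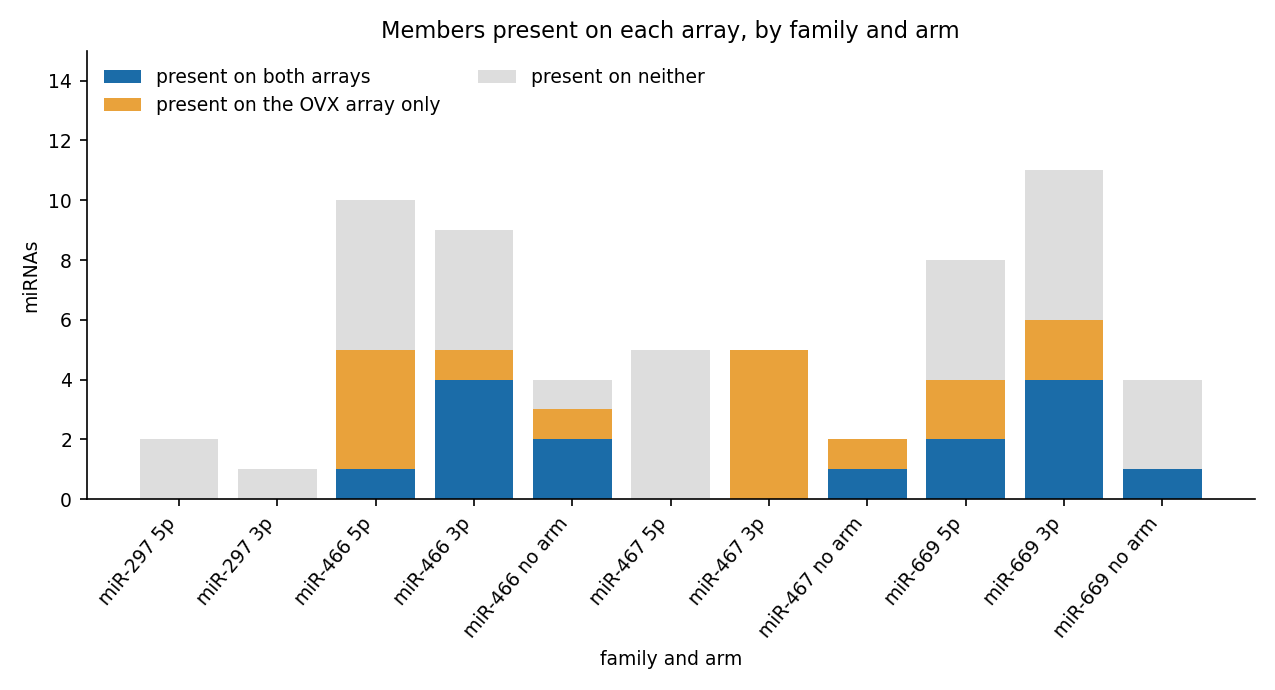
Stacked bars count the members of each family and arm (x axis) that were present on both arrays, on the OVX array only, or on neither (y axis, number of miRNAs). All 5 miR-467 3p members fall in the OVX-only class and all 5 miR-467 5p members in the class present on neither.

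The arms differed in presence. Among 3p names 8 of 26 were present in sham and 16 in OVX, and among 5p names 3 of 25 and 9 of 25. Names with no arm gave 4 of 10 and 6 of 10. The split was complete in the miR-467 family, where 0 of 5 of the 5p arms were present on either array. Of its 3p arms 0 of 5 were present in sham and 5 of 5 in OVX. The longest alternating run in the probes of these 5p arms was 3 to 5 bases, and in those of each 3p arm 8 bases. Arm and run length thus go together in this family, and their parts were not tested. Probes of the 3p arms also share stretches, from 11 bases (miR-467b-3p with miR-467a-3p) to 20 (miR-467c-3p with miR-467e-3p). Their signals thus cannot be assigned to 5 separate miRNAs with certainty. In the miR-466 family 1 of 10 of the 5p arms and 4 of 9 of the 3p arms were present in sham, and 5 of 10 and 5 of 9 in OVX. In the miR-669 family 2 of 8 and 4 of 11 were present in sham, and 4 of 8 and 6 of 11 in OVX. Members were also classed by the kind of their longer alternating run, whatever its length. Of 32 members whose longer run in the target is of A and C, 11 were present in sham and 20 in OVX. Of 28 with U and G, 4 and 11 were present. Among other miRNAs, 9.96% and 14.4% were present in the A and C class, and 10.6% and 15.5% in the U and G class. Runs below 6 bases were held by 3 of the 32 and 11 of the 28, none of them present. With 6 to 7 bases, 2 of 12 in the A and C class were present in sham and 3 in OVX. In the U and G class it was 1 of 11 and 7. With 8 to 9 bases it was 1 of 9 and 9 for A and C, and 2 of 5 and 3 for U and G. The order of the classes thus changed with run length.

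Among the members, presence went with the length of the alternating run in the probe, in bins set after the values were seen. Of the 15 members with no run of 6 bases, none was present on either array, beside 9.99% in sham and 14.4% in OVX of the 1781 other miRNAs in that bin. Of the 23 with a longest run of 6 to 7 bases, 3 (13.0%) were present in sham and 10 (43.5%) in OVX, beside 15.6% and 18.8% of the 32 other miRNAs in that bin. With 8 to 9 bases it was 3 of 14 in sham and 12 of 14 in OVX, and with 10 or more it was 9 of 9 on both arrays. Few other miRNAs hold such longer runs. With 8 to 9 bases, 2 of 5 were present in sham and 4 of 5 in OVX, and with 10 or more both of the 2 were present on both arrays. Exceptions among members were miR-466a-5p and miR-466p-5p, which have a run of 9 bases and were present on neither array.

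**Figure D2:**
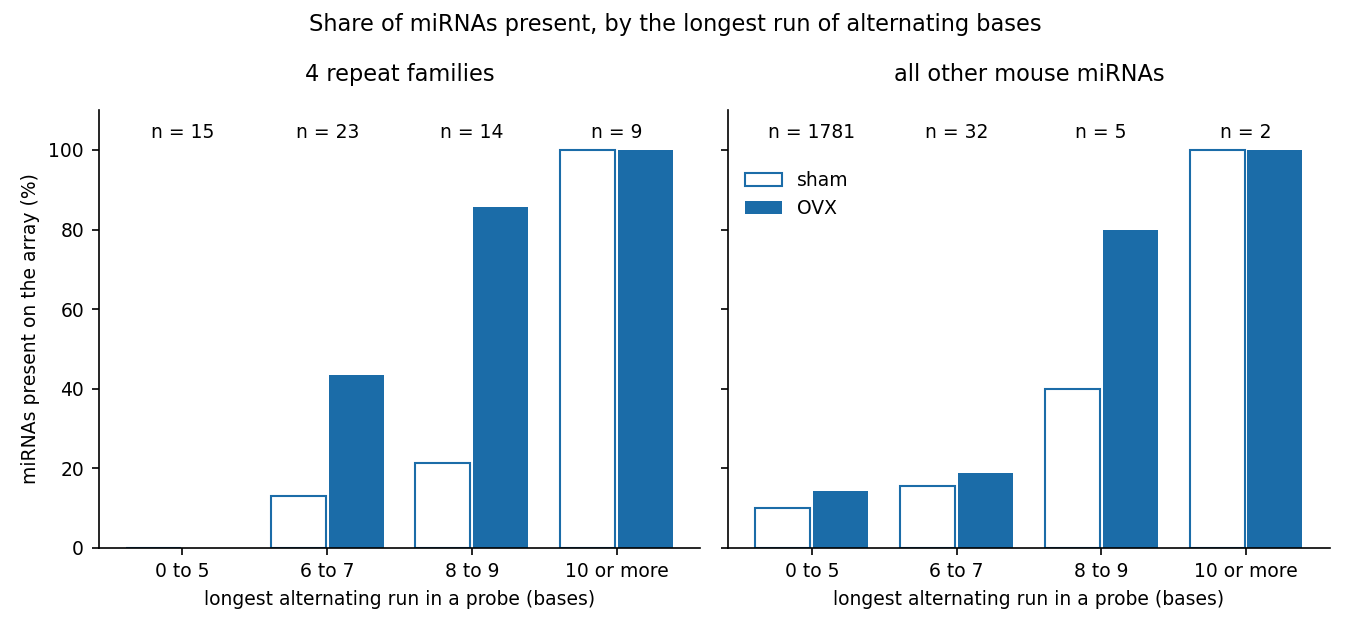
Bars give the percent of miRNAs present in sham (open) and in OVX (filled), by the longest run of alternating G and T or C and A in any probe (x axis, bases), for the 4 families (left) and all other mouse miRNAs (right), with the number of miRNAs above each pair. Among the members the share runs from 0 of 15 at the shortest runs to 9 of 9 at 10 bases or more.

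The 15 members present on both arrays could be compared by size. Their unscaled processed signals are given first, then the log2 difference OVX minus sham on the scaled values, averaged over the probes measured on both. All 29 of these probes had the higher unscaled signal on the OVX array, which was the brighter one. Over all 4415 probes, near background or not, the share was 63.9%.

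The miR-466 family held the 3 largest differences and both of the negative ones. For miR-466f-3p, 3 probes gave 33.5, 47.9 and 96.2 in sham and 117, 195 and 329 in OVX. That is a scaled difference of 0.85 (spot SE 0.04), or 1.81-fold, and another, shorter probe passed the background rule on the OVX array only, at 7.87 in sham and 52.3 in OVX. For miR-466g, 3 probes gave 33.0, 33.3 and 91.9 in sham and 111, 136 and 238 in OVX. Its scaled difference was 0.70 (spot SE 0.04), 1.63-fold, but its probes ranged from 0.36 to 1.01, a wider spread than the spots within each. For miR-466i-3p, the Cdk13 member shown above, 2 probes gave 38.3 and 89.3 in sham and 142 and 256 in OVX, for a scaled difference of 0.69 (spot SE 0.04), 1.61-fold.

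Smaller differences were seen for miR-466h-3p and miR-466q. The probes of miR-466h-3p gave 89.3 and 103 in sham and 241 and 279 in OVX, for a scaled difference of 0.42 (spot SE 0.03), the same in both probes to 2 decimals. Those of miR-466q, the Tnik member, gave 31.7 and 103 in sham and 89.4 and 255 in OVX, for a scaled difference of 0.39 (spot SE 0.04).

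The other pair of miR-466 members had a lower scaled level in OVX. Probes of miR-466i-5p are an uninterrupted repeat of C and A, and they gave 1374 ± 67.3 (SD, 15 spots) and 1566 ± 74.7 (SD, 15 spots) in sham and 2226 ± 93.8 and 2557 ± 108 in OVX. Its scaled difference was -0.31 (spot SE 0.02), so on the scaled values the probes named for the 5p and 3p arms of miR-466i differed in opposite directions. The 5p probes share 11 bases with those of the non-member miR-574-5p, so their signal cannot be assigned to that arm with certainty. Probes of miR-466o-3p were close to background, at 20.9 and 20.5 in sham and 26.6 and 37.2 in OVX, with a scaled difference of -0.41 (spot SE 0.14) and probes at -0.66 and -0.15. The sign of both members rests on the scaling, since without it miR-466i-5p was at 0.70 and miR-466o-3p at 0.61.

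One member of the miR-467 family was measured on both arrays. The probes of miR-467f, which lies within Fxr2, gave 71.5 and 118 in sham and 207 and 318 in OVX, a scaled difference of 0.47 (spot SE 0.03), or 1.39-fold.

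All 7 measured miR-669 members were higher in OVX by the scaled values, over a narrower range than the miR-466 family. For miR-669f-3p the measured probe gave 28.5 in sham and 84.1 in OVX, which is 0.55 after scaling (spot SE 0.06), and it was at -0.07 with the normexp background correction, which adds an offset of 50. Its other probe passed on the OVX array only, at 17.3 in sham and 58.6 in OVX, or 0.74 after scaling. For miR-669p-3p, with 4 probes at 69.1, 76.2, 83.6 and 87.0 in sham and 175, 193, 217 and 247 in OVX, the scaled difference was 0.38 (spot SE 0.03). These 2 miRNAs share 14 bases of their probes.

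Among those with 1 measured probe, miR-669l-5p gave 20.0 in sham and 51.9 in OVX, which is 0.36 after scaling (spot SE 0.05). In miR-669h-3p the signals were 21.2 and 54.1, a difference of 0.34 (spot SE 0.11). In miR-669e-5p they were 24.1 and 59.0, a difference of 0.28 (spot SE 0.08). These 3 lay near the lowest present signal of the sham array. With normexp their differences were -0.26, -0.25 and -0.25. Another probe of miR-669h-3p and another of miR-669e-5p passed the background rule on the OVX array only. At sham signals of 14.2 and 8.40 they gave larger scaled differences, 0.80 and 0.74.

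The brighter miR-669c-3p gave 46.1 in sham and 112 in OVX, which is 0.27 after scaling (spot SE 0.05), and was at -0.06 with normexp. Its other probe passed on the OVX array only, at 13.0 in sham and 38.9 in OVX, or 0.57 after scaling. The probes of miR-669n gave 99.0 and 94.1 in sham and 215 and 223 in OVX, for a scaled difference of 0.17 (spot SE 0.03), and it was at -0.02 with median scaling. It had the smallest difference in size of the 15.

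**Figure D3:**
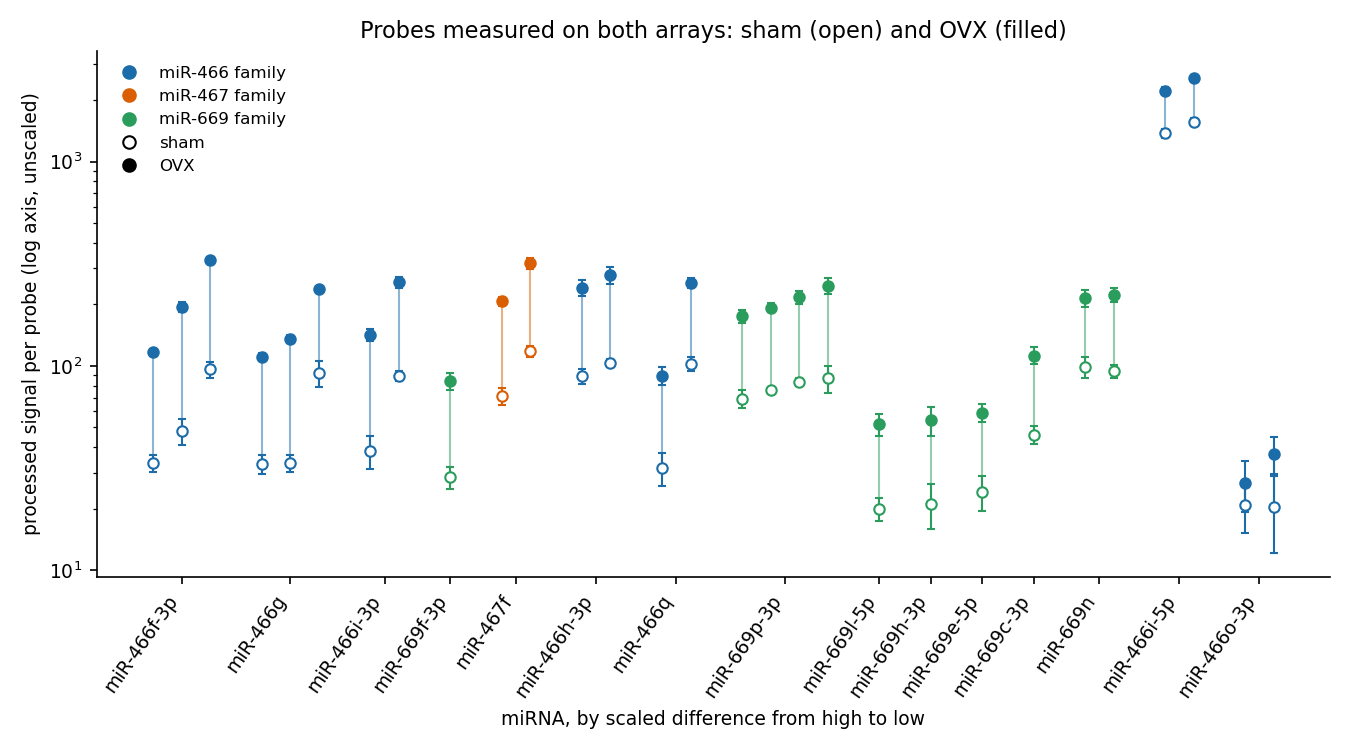
Points give the mean processed signal of each of the 29 probes measured on both arrays (y axis, log scale, unscaled), sham open and OVX filled, with bars of 1 SD between spots, grouped by miRNA from the highest to the lowest scaled difference (x axis). The filled point lies above the open one for every probe, and the pair of miR-466i-5p lies from 1374 upward.

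Relative to the other miRNAs, the measured members sat towards higher levels in OVX. Of the 15, 13 were above 0, beside 47.2% of the 197 miRNAs measured on both arrays. The 3 miR-466 members named first above were at least 1.5-fold higher (20.0%), beside 11.2%, and none was at least 1.5-fold lower, beside 14.7%. None reached 2-fold in either direction, and the largest, miR-466f-3p, ranked 12 of 197. The median of the members was 0.38, that of all 197 was -0.04, and the gap between them was 0.42. The members passed only where both arrays lay above background, so the other 46 have no value here.

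By family, the median difference was 0.42 for the 7 miR-466 members (range -0.41 to 0.85), 0.34 for the 7 miR-669 members (0.17 to 0.55) and 0.47 for the single miR-467 member. By arm, it was 0.40 for 8 of the 3p arms, 0.28 for 3 of the 5p arms and 0.43 for 4 names with no arm. The direction of the 5p median is not settled: relative to all measured miRNAs it was 0.32, but -0.28 with outlier spots kept, -0.28 where all spots had to be above background and -0.16 with the gene-level signal. These medians lie closer together than the members of the miR-466 family do among themselves. The 10 members with several measured probes had all of them on the same side of 0, while the mean SD between probes of a member was 0.190, against 0.108 over all measured miRNAs.

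**Figure D4:**
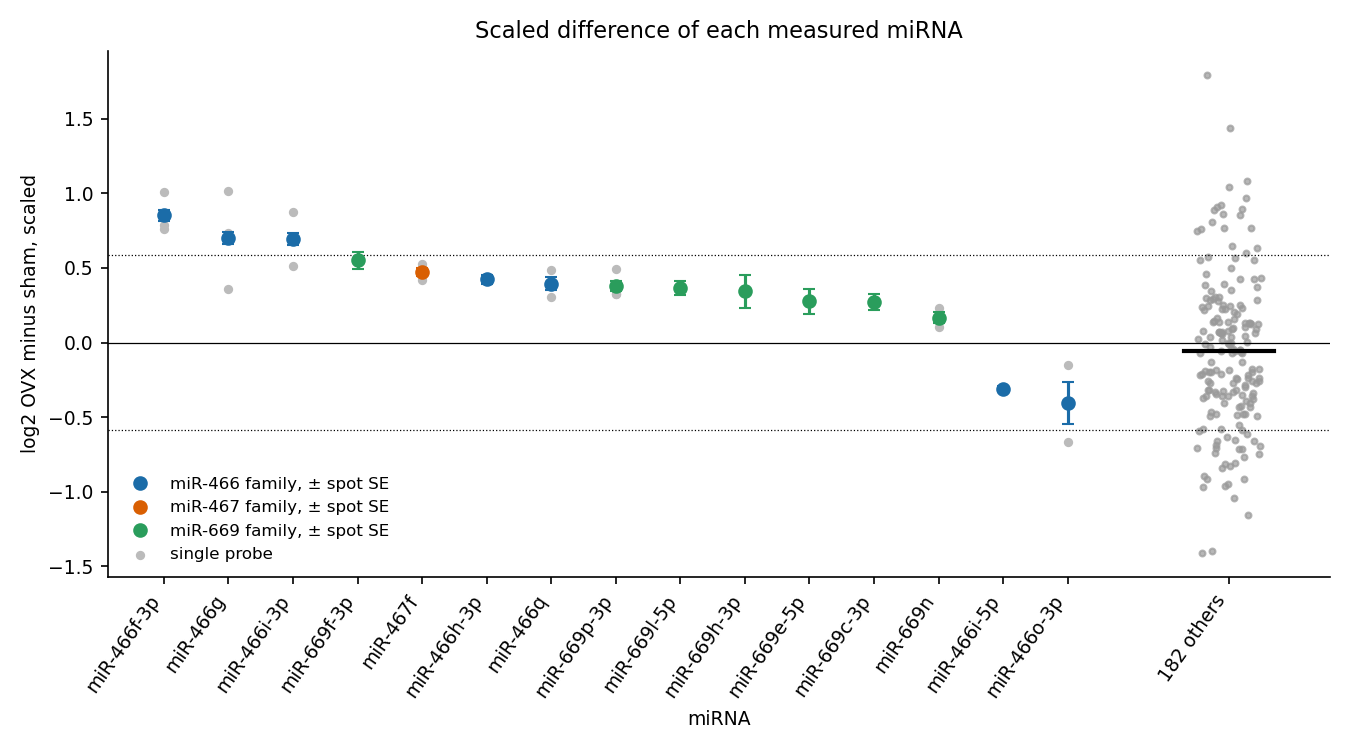
Coloured points give the scaled log2 difference OVX minus sham of each measured member with its spot SE, small grey points its single probes, and the strip at the right the 182 other measured miRNAs with their median as a bar (y axis, log2). Dotted lines mark 1.5-fold: 3 miR-466 members lie above the upper line and no member below the lower one.

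For the 16 members present on the OVX array only, the sham level has only a bound. It was computed from the OVX level and the higher of the probe's own sham signal and the lowest present signal of that array. After scaling, 4 of the 16 (25.0%) had a bound above 1, beside 21.6% of all 102 miRNAs present on the OVX array only. The 4 probes of miR-467a-3p gave 11.4 to 16.1 in sham and 48.4 to 74.4 in OVX, at least 1.62-fold higher. Those of miR-466m-5p gave 8.95 and 16.3 in sham and 35.5 and 60.0 in OVX, at least 1.28-fold higher. For miR-467d-3p, at 6.17 and 9.85 in sham and 37.7 and 48.6 in OVX, and for the 1 present probe of miR-669o-5p, at 12.6 and 42.7, the bound was 1.19-fold. Without scaling all 16 had a bound above 1, from 1.35-fold to 3.27-fold, but the rule could give no other outcome. Their passing probes were at 22.1 or more in OVX and at most 16.3 in sham, below the lowest present sham signal of 17.8.

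Low signals marked the 30 members present on neither array. Their 78 probes reached at most 6.62 in sham and 20.6 in OVX, with medians of 0.0124 and 3.06. Before scaling, 59 of the 78 were higher in OVX, beside 63.9% of all probes. The probes of miR-467a-5p gave -0.523 and 1.94 in sham and -0.204 and 3.45 in OVX, within 1 SD of the negative control mean of each array. Those of miR-297c-5p gave 2.24 and 2.03 in sham and 6.40 and 14.4 in OVX. For miR-466l-3p, the arm that shares its name with the interleukin 10 regulator, the range was 4.40 to 5.79 in sham and 5.13 to 7.15 in OVX.

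Other mouse miRNAs with the same repeat were also present more often than miRNAs at large, and 3 of 4 were lower in OVX by the scaled values. The list held the 6 non-members whose mature sequence contains GUGUGUGU or ACACACAC, of which 4 were present in sham and 5 in OVX. Against it, 19 members had such a repeat in a probe (GTGTGTGT or ACACACAC on the probe strand), and 9 of these were present in sham and 17 in OVX. Of the 42 members without it, 6 and 14 were present. The 4 measured non-members had differences of -0.36 (miR-1187), -0.35 (miR-574-5p), -0.13 (miR-3082-5p) and 0.75 (miR-32-3p), with a median of -0.24. The 9 measured members with the repeat had a median of 0.42. With so few miRNAs this is a description of their values.

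Base composition moved with the differences. The probes of the measured members had a median GC content of 42.5%, against 54.2% for all measured miRNAs, and over all 197 the difference correlated with GC content at a Spearman rho of -0.32. Those miRNAs share the 2 arrays. Within the 15 members rho was 0.20. With a straight-line trend on GC content removed, the gap between the members' median and that of all was 0.23 in place of 0.42, and 13 of 15 members were above the median of all.

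In mouse build mm9 the files list a probe match for 32 members and none for 29. The probes of 31 match chromosome 2 between 10388918 and 10438764, a span of 49.8 kb, and those of miR-466i-3p match chr13:17839390-17839407. Of 81 hairpin genes of the 4 families in the RefSeq table, 71 lay within Sfmbt2 and 10 elsewhere. Probes of 11 members match several places, up to 11 for miR-466b-3p. Those of miR-669b-5p also match chromosomes 7 and 10 and, outside the cluster, chr2:169144440-169144456. The probes of miR-669n match chr2:10430951-10430967 in the cluster, where miR-669c-5p of the same probes belongs by name, whereas RefSeq places Mir669n on chromosome 3. Of the 32 members with a match 7 were present in sham and 16 in OVX, and of the 29 without one 8 and 15. The median difference was 0.36 for the 7 measured members with a match, all above 0, and 0.41 for the 8 without, of which 6 were above 0.

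Most measured members lay above the median of all measured miRNAs in all of the alternatives. Alternatives that only shift every value by a constant could not move a member across that median. Under each alternative that gave them a value, 11 of the 15 were above the median of all measured miRNAs. The exceptions were miR-669l-5p, which was at -0.01 with normexp, miR-669e-5p, miR-466i-5p and miR-466o-3p. For miR-669e-5p, 1 flagged sham spot of 225057 gave a difference of -8.98 when flagged spots were kept, and Agilent's gene-level signal gave -0.60. For miR-466o-3p the value relative to the median of all was above 0 only with floored signals, at 0.37. That of miR-466i-5p was above 0 in 4 of 17 alternatives.

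**Figure D5:**
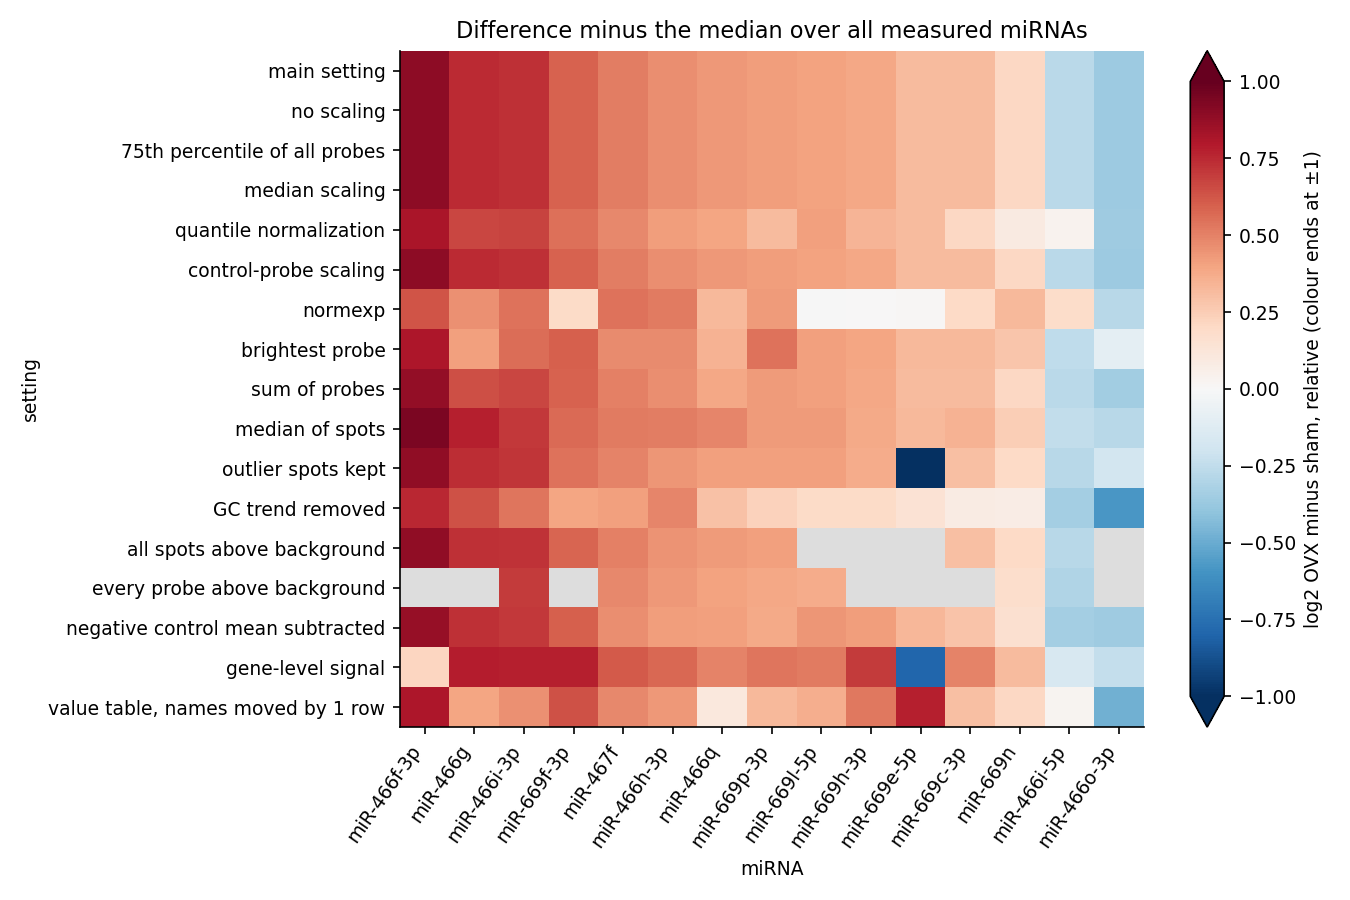
Cells give each measured member's difference minus the median over all measured miRNAs (colour, log2, ending at ±1) for the main setting and the alternatives (rows) other than floored signals, with grey where the member has no value. The columns of miR-466f-3p to miR-669p-3p are above 0 in each row that has a value, and that of miR-466o-3p is below 0 in each drawn row that has a value.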

How the data were processed

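RNA from 1 sham pool and 1 OVX pool was labelled with Cy3, per the labels, whose protocol names a cRNA kit. The deposited scanner files hold intensities per spot from Agilent Feature Extraction (10.7.1.1 in the file headers, 11.0.1.1 in the submitters' processing notes). The processed intensity is background-subtracted and not normalized between arrays, per the file headers. The authors' deposited value table is on a log2 scale, with normalization and centring not given in the sources used here. Medians of its columns were -3.18 (sham) and -3.32 (OVX). Its names went with the gene-level signal only when moved by 1 row (Spearman 0.996 and 0.993, against 0.0158 and 0.0411 as printed), so it served as an alternative.

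Control spots and outlier flags were left out. Each probe's mean signal was taken to log2 and centred on its array's 75th percentile, over the 350 probes that passed the background rule on both arrays. The difference of a miRNA is the mean over its probes measured on both. Both arrays were on 1 slide with 1 scan. Every member measured on both arrays was named, and of those on 1 array only, those with a bound above 1 or the 3 brightest. The members and lists were chosen with earlier results of these data known. The code was tested on simulated arrays. Python 3.11.15, pandas 2.3.3, numpy 2.4.6 and limma 3.58.1 (normexp) were used. Matching to RefSeq was by miRNA name, with 1608 array miRNAs matched.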

Additional observations from a re-analysis of the deposited data

How the results depend on the processing

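With 1 array per group, depth here means signal over background, and most members sit near it. The gap between the median of the 15 measured members and that of all measured miRNAs was 0.42. It stayed above 0 under every alternative run, between 0.10 (dim signals floored, all 61 members) and 0.52 (gene-level signal), with 0.32 for normexp and 0.23 with the GC trend removed. Leaving out scaling, or scaling by medians, control probes or the 75th percentile of all probes, shifts all values by 1 constant. Those alternatives could not change the gap. Absolute counts moved more. Members at least 1.5-fold higher were 15 without scaling, 13 with control-probe scaling, 10 with the gene-level signal, 5 with the 75th percentile of all probes or floored signals, 1 with median scaling, quantile normalization, the brightest probe or every probe above background, and 0 with normexp or a 2-fold rule. The higher counts go with a shift of all 197 measured miRNAs. Their median rose from -0.04 in the main setting to 0.97 unscaled and 0.60 by control probes. Both of these medians exceed 1.5-fold, so most measured miRNAs also reached it there. For the gene-level signal that median was 0.19. Members at least 1.5-fold lower were 1 with median scaling, outlier spots kept, the GC trend removed or the gene-level signal. They were 33 with floored signals, where a probe at both floors takes the difference of the floors. The members' median was then -0.80, beside -0.90 for all 1881 miRNAs, so this count is not particular to the members. Members present on the sham array were 8 where every probe had to be above background, and 23 on the OVX array.

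Relative medians of miR-669 were 0.19 with normexp, 0.19 with the GC trend removed, 0.52 with the gene-level signal and 0.0476 floored; those of miR-466 were 0.59 where all spots had to be above background and 0.35 floored. The 3p medians were 0.31 with normexp, 0.31 with the GC trend removed and 0.55 with the gene-level signal. Names with no arm gave 0.39, 0.35 and 0.56 in the same order, 0.38 with the brightest probe, 0.30 with the value table and 0.57 floored. The 5p median rests on 3 members: it was 0.0083 with normexp, 0.15 with the GC trend removed, 0.037 where every probe had to be above background, 0.0 floored, -0.28 with outlier spots kept, -0.28 where all spots had to be above background and -0.16 with the gene-level signal.

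Signs turned for miR-466i-5p (0.70 without scaling, 0.33 with control-probe scaling, 0.0329 with the gene-level signal), miR-466o-3p (0.61 and 0.23 for the first 2), miR-669n (-0.0169 with median scaling, -0.01 with quantile normalization), and with normexp for miR-669c-3p (-0.0591), miR-669e-5p (-0.25), miR-669f-3p (-0.0651), miR-669h-3p (-0.25) and miR-669l-5p (-0.26). For miR-669e-5p it was also -8.98 with outlier spots kept, -0.60 with the gene-level signal and -0.0319 floored. The cause was not tested, except that a scaling moves all values by 1 constant. Subtracting the negative control mean was added after seeing the data and changed no count by over 1.5 times. No paired analysis was possible because each group is 1 array.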
